A study of Mus musculus with 40 samples.

Results

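The apolipoproteins and the plasma enzyme that act on lipoproteins were followed through 9 genes in male B6C3F1 mice, in liver and in kidney: Apoa1, Apoa2, Apoa4, Apoa5, Apob, Apoc1, Apoc3, Apoe and Lcat. They were chosen by gene symbol in the probe annotation of the array, which gives 14 of the 45037 probe sets to these 9 of 18193 named genes. A further gene of the group, Lipc, the hepatic lipase, was not matched to a probe set with a single symbol and was not analysed here. Apoa1 has 4 probe sets, Apoa4 and Apob have 2 each, and the other 6 genes have 1 each. Phenobarbital (PB), a barbiturate that activates the nuclear receptor CAR in hepatocytes, was taken by 10 mice (PB mice) over 28 days with their drinking water, which held 0.05% (w/v), and 10 mice without the drug served as controls. All animals were B6C3F1/Crl males from a cross of C57BL/6 and C3H/He, 29 to 32 days old on arrival and acclimatised for 5 days. Total RNA of the liver and of the kidney of each animal was hybridised to its own Affymetrix Mouse430_2 array, which made 40 arrays in 4 groups of 10. The study used the liver as the organ in which long PB treatment gives tumors and the kidney as an organ in which it does not.

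Lipoproteins carry cholesterol and triglyceride through plasma in particles whose surface holds apolipoproteins. Hepatocytes load Apob with lipid and secrete it as very low density lipoprotein, while Apoa1 and Apoa2 are the main proteins of high density lipoprotein. Smaller apolipoproteins move between particles and set how fast lipases and receptors clear them. Most of these genes are among the most active genes of the hepatocyte, and Apoa1, Apoc3, Apoa4 and Apoa5 lie side by side in this order on mouse chromosome 9, as Apoc1 and Apoe do on chromosome 7.

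Values below are MAS5 signals, a linear brightness of a probe set that was scaled by the authors to the same trimmed mean on each array. A signal can be compared between arrays for 1 probe set, but not between probe sets. Median signals of the arrays lay between 32.9 and 37.2 in livers and between 30.0 and 34.9 in kidneys. Tissue labels were checked against marker genes. All 13 hepatocyte markers measured passed a mean signal of 50 in PB and in control livers. Their summed signal was 148072 to 202305 in PB livers and 168754 to 220806 in control livers. In kidneys the sum was 7565 to 9997 in PB mice and 6979 to 13669 in control mice. Ttr, which encodes transthyretin, had a mean of 20202 in PB and 21343 in control livers. It was high in kidneys too, with means of 8515 in PB and 9704 in control mice. The summed signal of 11 kidney epithelium markers, led by Kap, was 58794 to 73285 in PB kidneys and 55403 to 75479 in control kidneys, against 195 to 527 in PB livers and 151 to 1878 in control livers. Of 9 intestinal markers, relevant because enterocytes also express apolipoproteins, 1 passed the filter in livers (Fabp2) and 1 in kidneys (Vil1). In bulk tissue, fewer cells of a type and less RNA per cell cannot be told apart.

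In liver, both Apoa4 probe sets were lower in PB livers than in control livers, and no other member passed the test, but neither call held under every setting tried. All 14 log2 fold changes of members were below 0, from -0.52 to -0.05 with a median of -0.08, on the deposited scale, while after quantile normalization of the arrays Apoa2 and the Apoa1 probe set 1419233_x_at lay slightly above 0. Among the 18981 probe sets that were tested in this organ, 52.8% had a log2 fold change below 0 and the median was -0.01. The 14 values are not independent, since 4 of these probe sets measure Apoa1. In addition, 6 of the genes varied together between livers (r of 0.849 to 0.983, given below). The 13 hepatocyte markers tested had a median log2 fold change of -0.07. The test (limma, Benjamini-Hochberg adjusted over all probe sets tested) called 12.3% of all probe sets, 6.43% lower and 5.88% higher in PB livers, and the 2 member probe sets called lower are both of Apoa4.

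Apoa1, the structural protein of high density lipoprotein and an activator of Lcat, was measured by 4 probe sets. With 1419232_a_at the lowest, median and highest signals were 22130, 25609 and 31704 in PB livers, and 24162, 25573 and 31553 in control livers. The groups overlapped, with 3 PB livers below every control liver and 1 above every control liver. Its log2 fold change was -0.08 (SE 0.06, adjusted p = 0.486), which left a 95% interval of 0.865 to 1.04 for the ratio of PB to control livers. The other 3 Apoa1 probe sets had log2 fold changes of -0.06, -0.08 and -0.09, with adjusted p between 0.504 and 0.646.

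Apoa2, the second most common protein of high density lipoprotein, ranged over 17626, 19701 and 28097 (lowest, median, highest) in PB livers and 18854, 19892 and 26263 in control livers. These values also overlapped, with 3 PB livers below the lowest control liver. The log2 fold change was -0.07 (SE 0.08, adjusted p = 0.614, limma).

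Lcat encodes the plasma enzyme that esterifies the cholesterol of high density lipoprotein. Its signals were 3023, 3560 and 3616 (lowest, median, highest) in PB livers, against 3374, 3732 and 4093 in control livers. All 10 PB livers lay below the median of the control livers, and 4 of them lay below every control liver. The log2 fold change of -0.12 (SE 0.05) had an adjusted p of 0.0955 and did not pass, with a 95% interval of 0.861 to 0.984 for the ratio. Lcat had the smallest spread of the members, with a coefficient of variation of 6.26% in PB livers and 6.67% in control livers.

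Apoa4, a component of chylomicrons and high density lipoprotein that is made by intestine and, in rodents, also by liver, was the member with the lowest adjusted p. Probe set 1417761_at had signals of 876, 1114 and 1666 (lowest, median, highest) in PB livers, against 1134, 1434 and 3518 in control livers. It fell by 30.5% in PB livers (log2 fold change -0.52, SE 0.17, adjusted p = 0.0404, 95% interval of the ratio 0.547 to 0.883), and 5 of 10 PB livers lay below every control liver. The groups still overlapped, since the 2 highest PB livers, of animals 11 and 12, exceeded the median of the control livers.

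The other Apoa4 probe set, 1436504_x_at, which may also take up related transcripts, gave 1938, 2193 and 3245 (lowest, median, highest) in PB livers and 2404, 2897 and 5384 in control livers. It fell by 22.5% in PB livers (log2 fold change -0.37, SE 0.12, adjusted p = 0.0481), with 6 of 10 PB livers below every control liver. Control liver 2 held the highest value with both probe sets, and without it the log2 fold changes were -0.40 (adjusted p = 0.05005) and -0.28 (adjusted p = 0.0566). Both calls lie close to the threshold: leaving out any of 10 livers ended the first call and any of 13 livers the second, while every one of these fits kept the sign. The methods name a t-test with no form or scale. Run as Student's t on linear signal (called the methods' t-test here), and also on log2 signal, it called no member in liver after adjustment, against 4 at an unadjusted p under 0.05 in each of these tests and in limma. Limma called no member either without the filter on low signals or with robust eBayes. After quantile normalization the first Apoa4 probe set still passed and the other did not (adjusted p = 0.0511), while Apoa5 (adjusted p = 0.0377), Apob by 1455593_at (adjusted p = 0.0197) and Lcat (adjusted p = 0.0267) passed, all lower in PB livers.

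Apoa5, an apolipoprotein that promotes the hydrolysis of plasma triglyceride, showed signals of 6211, 8352 and 10991 (lowest, median, highest) in PB livers, against 7790, 10346 and 11064 in control livers. Of the 10 PB livers, 9 were under the control median and 4 under every control liver. The log2 fold change of -0.27 (SE 0.09) had an adjusted p of 0.0684 and did not pass in limma, with a ratio of PB to control livers between 0.726 and 0.953 (95% interval). Without PB liver 15, which held the highest PB value, it was -0.31 with an adjusted p of 0.0232.

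Apoc1 and Apoc3 are small apolipoproteins that slow the clearance of triglyceride-rich particles, and Apoc3 also inhibits lipoprotein lipase. Apoc3 had signals of 12880, 14814 and 19771 (lowest, median, highest) in PB livers and 13758, 15037 and 19185 in control livers. Its log2 fold change of -0.07 (SE 0.08) did not pass (adjusted p = 0.579). For Apoc1 the signals were 13283, 14656 and 17109 in PB livers and 12809, 14787 and 17244 in control livers, and no PB liver fell below the control range. With a log2 fold change of -0.05 (adjusted p = 0.609), Apoc1 had the smallest difference of the members.

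Apob, the protein backbone of very low density lipoprotein, was measured by 2 probe sets. Signals of 1455593_at were 13975, 15263 and 17197 (lowest, median, highest) in PB livers, against 14579, 15979 and 19013 in control livers, with 7 PB livers under the control median. The log2 fold change was -0.09 (SE 0.05, adjusted p = 0.290). Probe set 1457554_at gave -0.06 (SE 0.13, adjusted p = 0.791), and its sign turned when PB liver 15 was left out.

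Apoe, the ligand by which hepatocytes take up remnant particles, had signals of 16365, 19207 and 23680 (lowest, median, highest) in PB livers and 17629, 19451 and 23092 in control livers. The groups overlapped, and the log2 fold change was -0.07 (SE 0.07, adjusted p = 0.556). Apoe is also made by macrophages, and of 12 Kupffer cell and macrophage markers tested in liver 2 were lower and none was higher, a share of 16.7% that lies near the 14.2% of all genes called. The summed signal of that marker list was 3469 to 7730 in PB livers and 4623 to 7200 in control livers, and its part in the Apoe signal was not tested.

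No member reached the fold and p that the study used for its own lists, a ratio of at least 1.5 and a p of at most 0.001, whereas in liver 455 probe sets did by limma's unadjusted p and 373 by Student's t on linear signal. The form of the t-test behind the study's own lists is not given in the sources used here, so these counts need not be those of the study. PB and control values did not overlap for 1.36% of all probe sets tested in liver, and for no member.

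**Figure D1:**
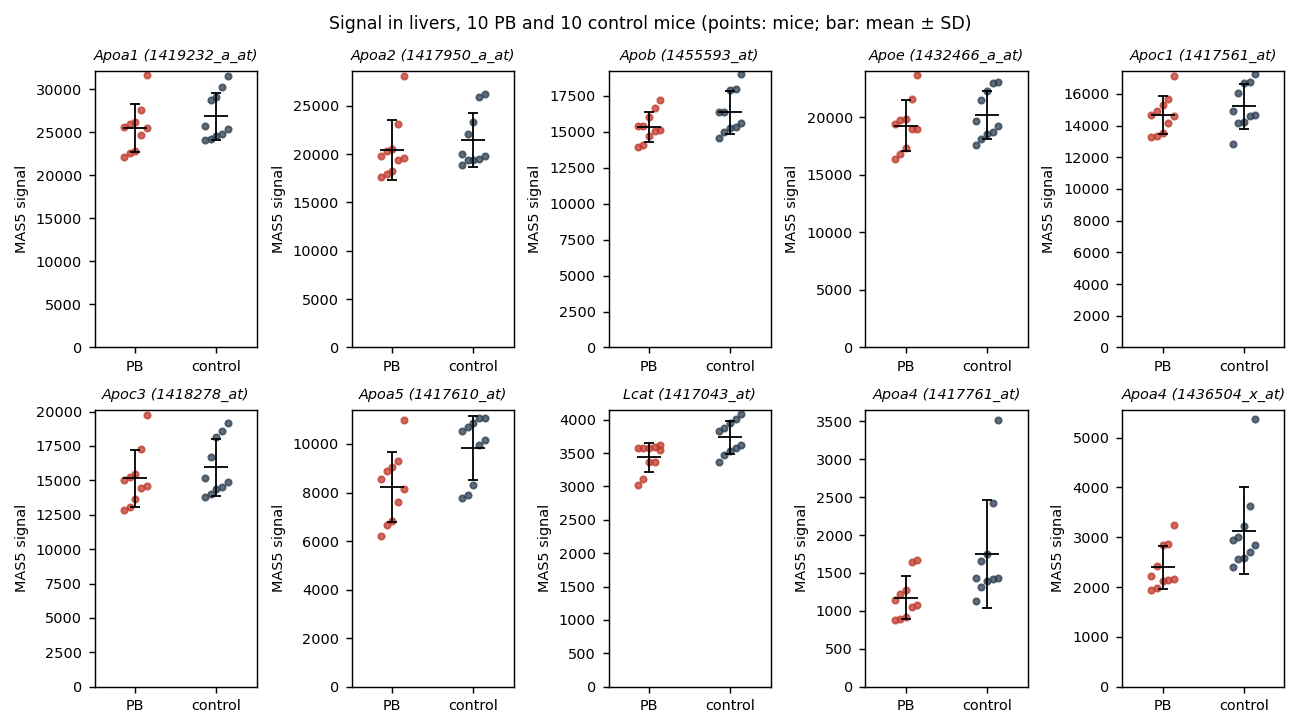
Each point is the MAS5 signal (linear, axis from 0) of the liver of 1 mouse, with PB mice left of control mice, and the bar gives mean and SD of 10 mice. The 8 panels of the first genes show the probe set with the highest mean, and the last 2 show both Apoa4 probe sets, where most PB livers sit low and control liver 2 stands highest.

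**Figure D2:**
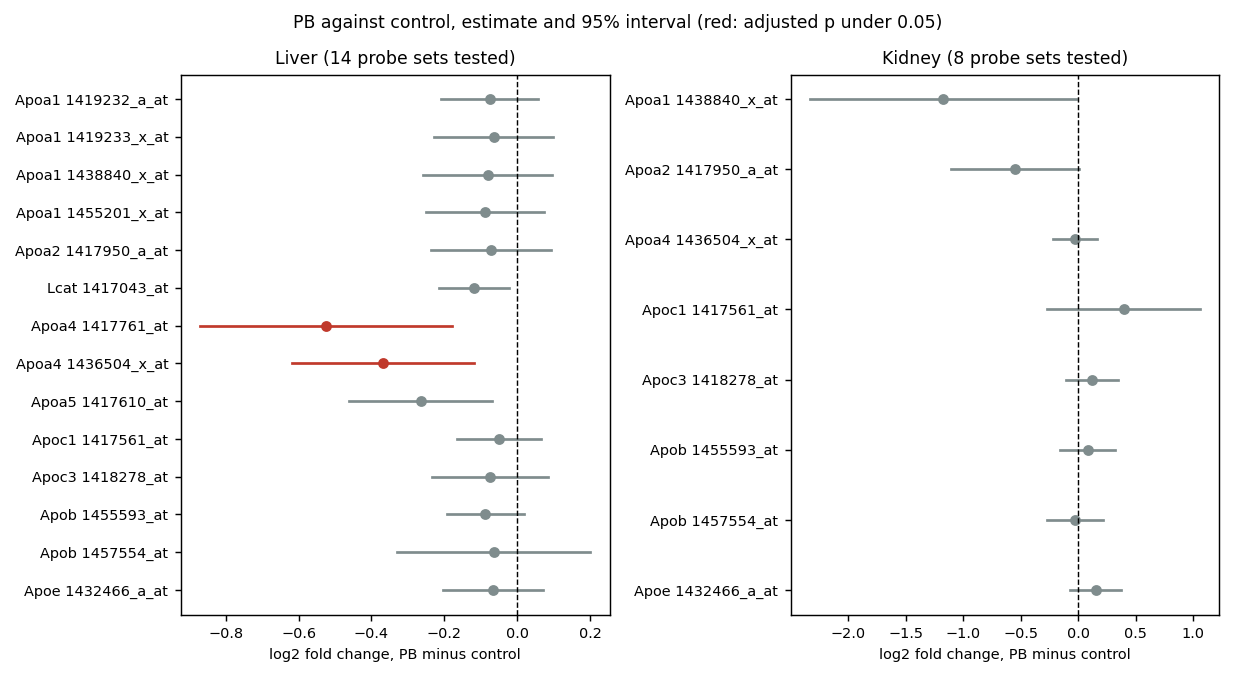
Points are log2 fold changes of PB over control with 95% intervals from limma, for the 14 member probe sets tested in liver and the 8 tested in kidney, on separate axes. In liver all 14 points lie below 0 on the deposited scale (2 lie slightly above 0 after quantile normalization) and the 2 red Apoa4 points passed the test, while none passed in kidney.

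Apoa4 was the member called in liver, and its neighbours on chromosome 9, Apoc3 on one side and Apoa5 on the other, were not called. Apoa5 lay close to the threshold (limma adjusted p = 0.0683) and passed after quantile normalization (0.0377). No difference in PB effect between these genes was tested. The stretch before the start of Apoa4 is shown beside those of Apoa1 and Apoa5. RefSeq promoter sequences on GRCm38.p6 matched 8 of 10 genes with 13 starts; Apoc1 and Apoc3 were not matched. Given are the 250 bases before the first listed start, all on the + strand. Capitals mark matches, on either strand, to CAAAGTNCA (a core of the direct repeat that HNF4 and retinoid X receptor partners bind), AGGTCA (a core site of nuclear receptors) and TATAAA.
Apoa4, chr9:46240594-46240843: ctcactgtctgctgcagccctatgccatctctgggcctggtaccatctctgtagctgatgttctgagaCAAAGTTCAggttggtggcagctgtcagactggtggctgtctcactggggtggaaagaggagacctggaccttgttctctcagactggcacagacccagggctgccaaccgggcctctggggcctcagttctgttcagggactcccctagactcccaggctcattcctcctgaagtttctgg
Apoa5, chr9:46268358-46268607: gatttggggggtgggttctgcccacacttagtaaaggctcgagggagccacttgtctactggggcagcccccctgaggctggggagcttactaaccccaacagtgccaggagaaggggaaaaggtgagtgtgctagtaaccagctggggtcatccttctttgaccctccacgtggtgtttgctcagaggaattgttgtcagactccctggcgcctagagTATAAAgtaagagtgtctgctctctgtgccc
Apoa1, chr9:46228380-46228629: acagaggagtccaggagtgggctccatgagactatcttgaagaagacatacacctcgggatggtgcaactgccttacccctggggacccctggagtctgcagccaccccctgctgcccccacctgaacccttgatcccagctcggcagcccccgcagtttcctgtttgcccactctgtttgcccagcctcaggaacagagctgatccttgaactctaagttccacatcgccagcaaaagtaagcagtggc

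Of the 3 sequences, the one before Apoa4 held the CAAAGTNCA match, 182 to 174 bases before the start, and the one before Apoa5 held TATAAA, 31 to 26 bases before the start. No match was found before Apoa1. Windows of the same length before all 32851 RefSeq starts held CAAAGTNCA in 1.19%, AGGTCA in 14% and TATAAA in 12.4%. A match describes the letters of these windows, and no binding was measured.

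In kidney, no member was called. Signals were far lower than in liver, and 8 of 14 member probe sets, of 7 genes, reached a mean signal of 50 in PB or control kidneys and were tested: 1 of 4 for Apoa1, 1 of 2 for Apoa4, both of Apob, and those of Apoa2, Apoc1, Apoc3 and Apoe. Apoa5 (means of 24.4 in PB and 32.3 in control kidneys) and Lcat (18.7 and 23.2, in the same order) were under the filter. Of all 19229 probe sets tested in kidney 3.26% were called, 1.79% higher and 1.47% lower, and PB and control values did not overlap for 0.161%. Limma gave 1 member an unadjusted p under 0.05, and neither of the Student's t-tests gave any.

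Apoe had kidney signals of 389, 513 and 868 (lowest, median, highest) in PB mice and 402, 474 and 561 in control mice. Its log2 fold change was 0.15 (SE 0.11, adjusted p = 0.477). Apoc3 gave 204, 291 and 369 in PB kidneys and 200, 240 and 401 in control kidneys, a log2 fold change of 0.12 (adjusted p = 0.599). The groups overlapped for both genes.

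The Apob probe set 1455593_at had signals of 216, 429 and 544 (lowest, median, highest) in PB kidneys, against 329, 397 and 432 in control kidneys. PB kidneys spread more widely, with a coefficient of variation of 22.8% against 8.73% in control kidneys, and the log2 fold change was 0.08 (adjusted p = 0.771). For Apoa4 the tested probe set, 1436504_x_at, averaged 120 ± 21.3 in PB kidneys and 121 ± 13.0 in control kidneys (SD, n = 10 each), with a log2 fold change of -0.03 (adjusted p = 0.897).

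Of the tested members Apoa1, Apoa2 and Apoc1 had the widest spread between kidneys. Apoa2 signals were 60.4, 73.2 and 396 (lowest, median, highest) in PB kidneys, against 81.8, 117 and 226 in control kidneys, and 7 PB kidneys lay below every control kidney. The log2 fold change over all kidneys was -0.55 (SE 0.27) with an adjusted p of 0.287. PB kidney 19 held the 396, and without it the log2 fold change was -0.79 with an adjusted p of 0.0158. It was the 1 PB kidney with an Alb signal over 400, and 4 such control kidneys stayed in that fit. Without all 5 the log2 fold change of Apoa2 was -0.43 and did not pass (limma adjusted p = 0.110, given below).

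Apoa1, by probe set 1438840_x_at, had signals of 4.4, 15.4 and 195 (lowest, median, highest) in PB kidneys and 10.6, 32.6 and 113 in control kidneys. PB kidney 19 again held the highest value. The log2 fold change of -1.18 (SE 0.56) did not pass (adjusted p = 0.269), and most of these values lie under 50, where the log2 scale magnifies small differences. Leaving out any of 4 kidneys took this probe set below the filter.

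Apoc1 had kidney signals of 23.6, 37.4 and 131 (lowest, median, highest) in PB mice and 14.2, 34.2 and 74.1 in control mice, with 7 of 10 values under 50 in each group. PB kidney 19 held the highest value here too. With a log2 fold change of 0.39 (SE 0.32, adjusted p = 0.559), the highest of the tested members, Apoc1 did not pass, and the groups overlapped.

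The kidneys high in Apoa1 and Apoa2 were also high in Alb, which encodes albumin and is a defining hepatocyte gene. Alb had signals of 1030 in PB kidney 19 and of 583, 923, 736 and 416 in control kidneys 1, 3, 9 and 10. In these 5 kidneys Apoa1 (1438840_x_at) was 90.7 to 195 and Apoa2 138 to 396. In the other 15 kidneys, 9 of PB and 6 of control mice, Alb was 61.2 to 195, Apoa1 4.4 to 37.6 and Apoa2 60.4 to 120. The kidneys were split at an Alb signal of 400, so the gap in Alb follows from the split, and the 2 sets did not overlap in Apoa1 or Apoa2 either. Of 13 hepatocyte markers 4 reached a mean signal of 50 in PB kidneys and 4 in control kidneys. Among the 4 tested in kidney 1 was lower in PB mice and none was higher, with a median log2 fold change of -0.44. Over all genes tested in kidney 3.74% were called. Ttr exceeded 6000 in every kidney, while the summed signal of the other 12 markers was 366 to 1865 in PB kidneys and 418 to 1937 in control kidneys.

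A fit without those 5 kidneys, chosen after the data were seen, called none of the member probe sets that it tested. Apoa1 and Apoc1 fell under the filter in this fit, so they could not be called. Apoa2 then had a log2 fold change of -0.43 (SE 0.12, adjusted p = 0.110), with 9 PB and 6 control kidneys. Over 20 kidneys the 3 genes whose deviations from the group mean followed those of Apoa1 most closely were Alb, Serpina1c, an antiprotease of plasma, and Bhmt, an enzyme of methionine metabolism. No correlation over all kidneys is given, since the kidneys fell into those 2 sets. The part of hepatocyte RNA in these signals was not tested.

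**Figure D3:**
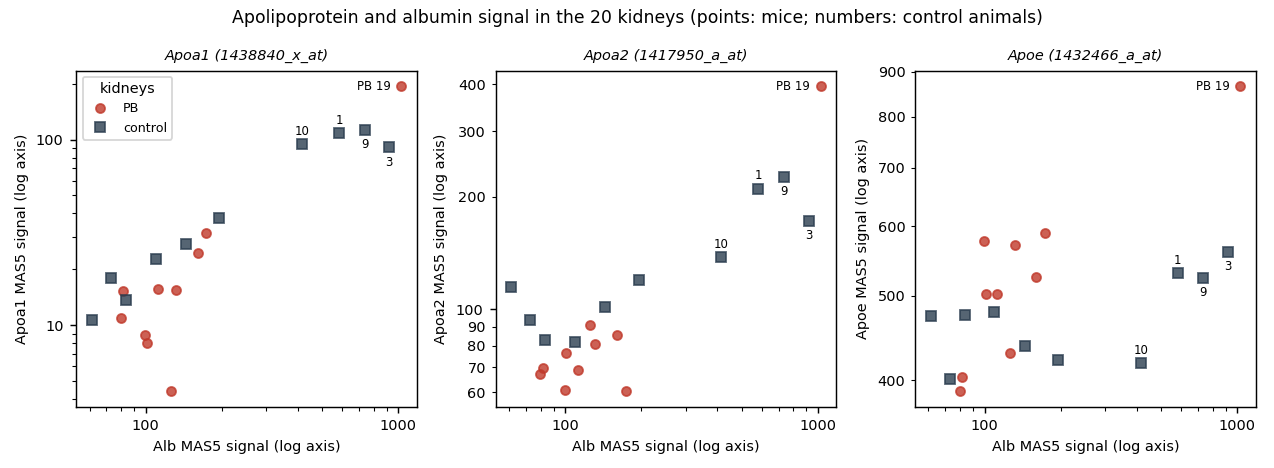
Each point is 1 kidney, with its Alb signal on the x axis and its Apoa1, Apoa2 or Apoe signal on the y axis (MAS5 signal, log axes), in red for PB and in dark blue for control mice. PB kidney 19 is highest in all 3 genes and in Alb, and control kidneys 1, 3, 9 and 10 follow it for Apoa1 and Apoa2.

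Between tissues, each of the 14 member probe sets was higher in liver than in kidney, in PB mice as in control mice. In PB mice the log2 difference of liver over kidney was 4.32 to 11.6, and in control mice it was 4.66 to 10.8. Over all 21866 probe sets tested, 79.2% differed between liver and kidney in PB mice, 34.8% higher and 44.4% lower in liver, and 78.1% differed in control mice, 35.2% higher and 42.9% lower in liver. The smallest difference in PB mice was that of Apoa4 by 1436504_x_at, with a liver mean 20.0 times the kidney mean. Differences of probe sets whose kidney mean lay under 50, which were 4 of the 4 for Apoa1 in PB mice, rest on kidney values near the background.

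The PB effect in liver minus that in kidney was tested in a fit over all 40 arrays. It differed from 0 for 1 of 14 member probe sets, where 6.21% of all 21866 probe sets passed (3.13% with a difference above 0 and 3.08% below 0). That was Apoa4 by 1417761_at, with a difference of -0.85 in log2 (SE 0.26, adjusted p = 0.0376, limma). Its kidney signals, 14.8 to 51.8 in PB mice and 16.4 to 35.3 in control mice, lie mostly under 50. With all signals under 50 set to 50 the difference was -0.53 and did not pass (adjusted p = 0.0551), and it did not pass either without a filter (adjusted p = 0.0642) or with the array number as a covariate (adjusted p = 0.0536). The other Apoa4 probe set, 1436504_x_at, whose kidney means lay above 50 in both groups, gave -0.34 (adjusted p = 0.222).

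Next, the spread of the members between livers of 1 group was compared, since genes of a cluster lie beside each other. For each gene the deviation of log2 signal from its group mean was taken in the 20 livers, and 7 pairs of cluster neighbours were tested by permutation within groups. Of these pairs 2 passed: Apoa1 with Apoc3 (r = 0.979, rho = 0.968) and Apoe with Apoc1 (r = 0.962, rho = 0.983), each with a permutation p of 1e-05, the smallest that 100000 resamples can give, and an adjusted p of 3.5e-05 for r and for rho. Both held within PB livers (r = 0.970 and 0.985), within control livers (r = 0.989 and 0.956), and without the 2 livers farthest from the median (r = 0.963 and 0.948). The 5 other pairs, those of Apoa4 and Apoa5, had r between -0.18 and 0.42 with adjusted permutation p from 0.170 to 0.863. Within control livers Apoa5 had r = 0.67 with Apoa1 and r = 0.65 with Apoc3 (adjusted permutation p = 0.0670 for each). Within PB livers these values were 0.19 and 0.24 (adjusted permutation p = 0.607 and 0.582), and the difference between groups was not tested.

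The same closeness was seen between genes on different chromosomes. Among Apoa1, Apoa2, Apob, Apoc1, Apoc3 and Apoe, a set picked after the values were seen, all 15 pairs had r of 0.849 to 0.983, and in 7 of 20 livers all 6 genes lay above their group mean and in 8 all 6 lay below it. These 6 genes followed the level of the brightest probe sets of each array. Against the mean deviation of the 100 brightest probe sets that are not members, r was 0.855 to 0.990 and rho 0.859 to 0.992 over 20 livers (adjusted permutation p of at most 1.5e-05 for r over the 9 genes compared), and 0.848 to 0.992 without the 2 farthest livers. Apoa4 had r = -0.25 and Apoa5 r = 0.33 against the same mean (adjusted permutation p = 0.300 and 0.186). Lcat lay between, with r = 0.48 (adjusted permutation p = 0.0499) and rho = 0.43 (adjusted permutation p = 0.0903). Over all 36 pairs of the 9 genes 16 passed, which were those 15 and Apoa5 with Apob. That pair had r = 0.568 and rho = 0.528 (adjusted permutation p = 0.0199 and 0.0453).

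After quantile normalization, which gives each array the same distribution of signals, the 15 pairs had r of -0.47 to 0.71 with a median of 0.06, and 6 were below 0. A rise or fall shared by the brightest probe sets of an array is removed by this step, whatever its source. The loss of these correlations therefore cannot show where they came from. Apoe with Apoc1 then had r = -0.15. Apoa1 with Apoc3 kept r = 0.71 (rho = 0.44, and r = 0.46 without the 2 farthest livers). Its r passed among the 7 neighbour pairs (adjusted permutation p = 0.0143) and not among all 36 pairs of the 9 genes, of which none passed. Apoa5 with Apob had r = 0.570 on this scale (adjusted permutation p = 0.183 over the 36 pairs). The Apoa1 probe set 1419232_a_at was itself the brightest probe set on 3 of 20 livers, where the highest signal of an array lay between 25795 and 33060. Whether signals in this range were saturated, which would narrow the differences between livers, was not tested.

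**Figure D4:**
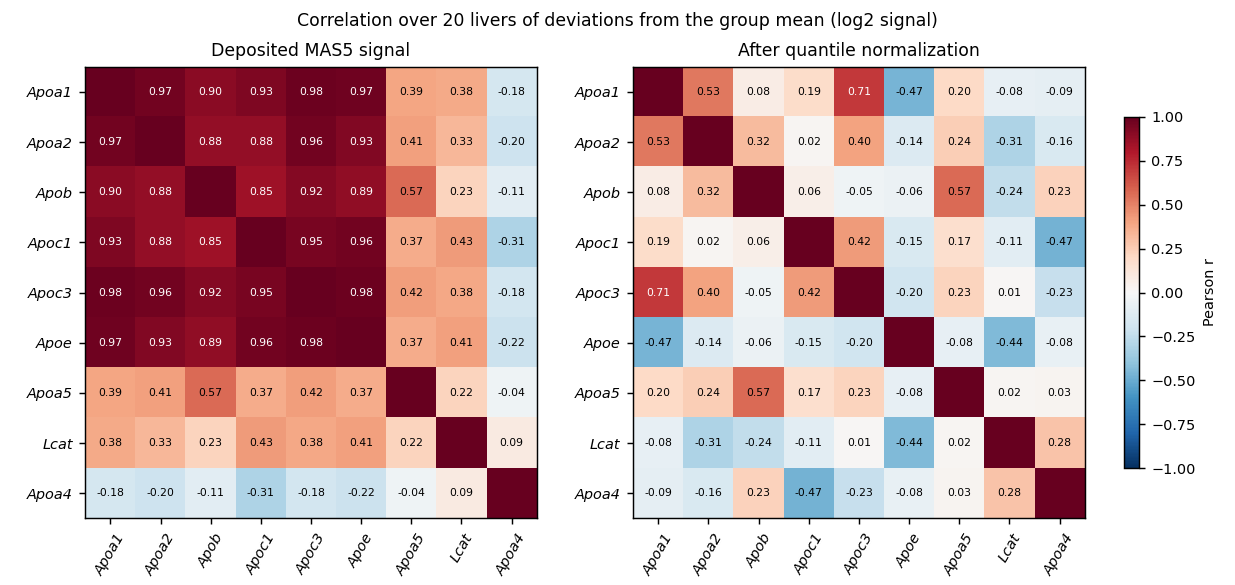
Pearson r between members over 20 livers, from deviations of log2 signal from the group mean, for the deposited signals (left) and after quantile normalization (right), with the value in each cell. The block of 6 genes with r of 0.849 to 0.983 on the left is not seen on the right, where Apoa1 with Apoc3 has the highest r, 0.71.

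The genes whose deviations over 20 livers were most like those of Apoa4 (1436504_x_at) were Ptpn1, which encodes a tyrosine phosphatase (r = 0.82), Nvl, an ATPase of the nucleus (r = 0.81), and Rhoq, a small GTPase (r = 0.81), out of 9975 genes compared. Without the 2 livers farthest from the median r was 0.56, 0.64 and 0.43 in the same order, so a large part of the likeness rests on those livers.

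Around the members, 6 lists of genes of the lipoprotein pathway were counted, with 1 probe set for each gene. In liver 91 of 114 listed genes were tested, and PB changed 25 of them: 10 were higher and 15 lower in PB livers. Over all 9976 genes tested in liver 14.2% were called, 6.45% higher and 7.72% lower. The lists were chosen with earlier results of these data known, so their counts beside this share cannot serve as support. The same holds for the lists in kidney. The largest numbers of calls came from the genes of lipoprotein assembly and secretion, in both directions, and from the receptors, mostly lower.

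Of 16 genes of assembly and secretion 5 were higher and 4 lower. Sar1b, a GTPase of the coat that exports large lipoprotein cargo from the endoplasmic reticulum, had signals of 7257, 7969 and 8691 (lowest, median, highest) in PB livers, against 4910, 5486 and 6881 in control livers. The groups did not overlap, and the log2 fold change was 0.51 (SE 0.06, adjusted p = 9.27e-07). A1cf, a cofactor of the enzyme that edits the Apob transcript, rose by 0.41 in log2 (adjusted p = 0.00322). Apobec1, that editing enzyme itself, fell by 0.63 in log2 (adjusted p = 0.0407), a call that leaving out any of 11 livers ended. Named here after their values were seen, Tm6sf2 (0.40), Sec24a (0.27) and Mttp (0.21), the transfer protein that lipidates Apob, also rose in log2, and Plin2 (-0.37), a coat protein of lipid droplets, Klhl12 (-0.24) and Pla2g12b (-0.18) were lower.

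Among 10 genes of lipoprotein receptors and their regulators 1 was higher and 4 were lower in PB livers. Lsr, a receptor for triglyceride-rich lipoproteins, had signals of 654, 753 and 908 (lowest, median, highest) in PB livers, against 962, 1051 and 1223 in control livers, with no overlap. Its log2 fold change was -0.47 (SE 0.06, adjusted p = 1.37e-05). Stab2, a scavenger receptor of liver sinusoidal endothelium, also did not overlap, with 359 to 445 in PB and 455 to 621 in control livers (log2 fold change -0.38, adjusted p = 0.000331). Scarb1, the high density lipoprotein receptor, fell by 0.34 in log2 (adjusted p = 0.00294). Sort1 was higher and Lrp1 lower, both named after their values were seen.

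Of 14 lipases, transfer proteins and lipase regulators 1 passed, a share of 7.14% beside 14.2% of all genes. Angptl4, an inhibitor of lipoprotein lipase, had signals of 203, 312 and 624 (lowest, median, highest) in PB livers, against 333, 690 and 1169 in control livers, and fell by 1.13 in log2 (SE 0.23, adjusted p = 0.00171). Of 12 genes of cholesterol efflux and high density lipoprotein enzymes 2 were higher and 1 lower. Abcg5, a subunit of the transporter that exports sterols into bile, rose by 0.44 in log2 (adjusted p = 0.00475), and Abca1, which loads Apoa1 with lipid, fell by 0.36 (adjusted p = 0.000444). Pon3, a lactonase carried on high density lipoprotein, rose by 0.22 (adjusted p = 0.0307), and leaving out any of 5 livers ended that call.

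Among 13 other apolipoproteins 1 was higher and 2 were lower. Saa4, an apolipoprotein of high density lipoprotein of the serum amyloid A family, had signals of 3800, 4827 and 5725 (lowest, median, highest) in PB livers and 4755, 7407 and 11760 in control livers, a fall of 0.67 in log2 (adjusted p = 0.00496). Apom fell by 0.17 (adjusted p = 0.0405) and Apol7a rose by 0.41 (adjusted p = 0.0430), but leaving out any of 11 and of 12 livers ended these calls. Of 26 transcription factors known to act on apolipoprotein genes 1 was higher and 3 were lower, a share of 15.4% that lies near the 14.2% of all genes called. Foxa3, a forkhead factor of hepatocytes, had signals of 269, 355 and 460 (lowest, median, highest) in PB livers and 309, 624 and 963 in control livers, and it fell by 0.71 in log2 (adjusted p = 0.00361). Nr1i3, which encodes CAR, rose by 0.32 (adjusted p = 0.0212), and Foxo1 fell by 0.26 (adjusted p = 0.0232). Rxra, the third that was lower, was named after its value was seen, and Hnf4a, a regulator of most members, had a log2 fold change of -0.17 and did not pass (adjusted p = 0.112).

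Some of these calls in liver did not hold in other fits. With all 40 arrays in 1 fit, Nr1i3 (adjusted p = 0.527), Foxa3 (0.0601), Abcg5 (0.463), Apom (0.102) and Apol7a (0.574) did not pass. Their log2 fold changes were unchanged in that fit, which shares the variance of a probe set between both tissues. Nr1i3, Foxa3, Abcg5 and Apol7a were under the filter in kidney, so their variance there rests partly on kidney values near the background. For these genes the joint fit cannot decide whether the liver calls hold. With each array centred on its median, Nr1i3 (adjusted p = 0.0583), Pon3 (0.0885) and Apol7a (0.0666) did not pass. Apobec1, Apom, Apol7a and Pon3 were also lost without a filter, and Apobec1 and Apol7a with the methods' t-test.

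Marker genes were counted in the same way, beside the 14.2% of all genes called in liver, 7.72% lower and 6.45% higher. Of 10 stellate cell and fibroblast markers tested 6 were lower and none was higher, a share of 60%. Their summed signal was 2880 to 3710 in PB livers and 3438 to 4228 in control livers. Of 13 hepatocyte markers 4 were lower (Fga, Fgb, Ahsg and Itih3) and none was higher, a share of 30.8%. Their sum was 148072 to 202305 in PB livers and 168754 to 220806 in control livers. The part of these cells in the members and in the lists was not tested.

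**Figure D5:**
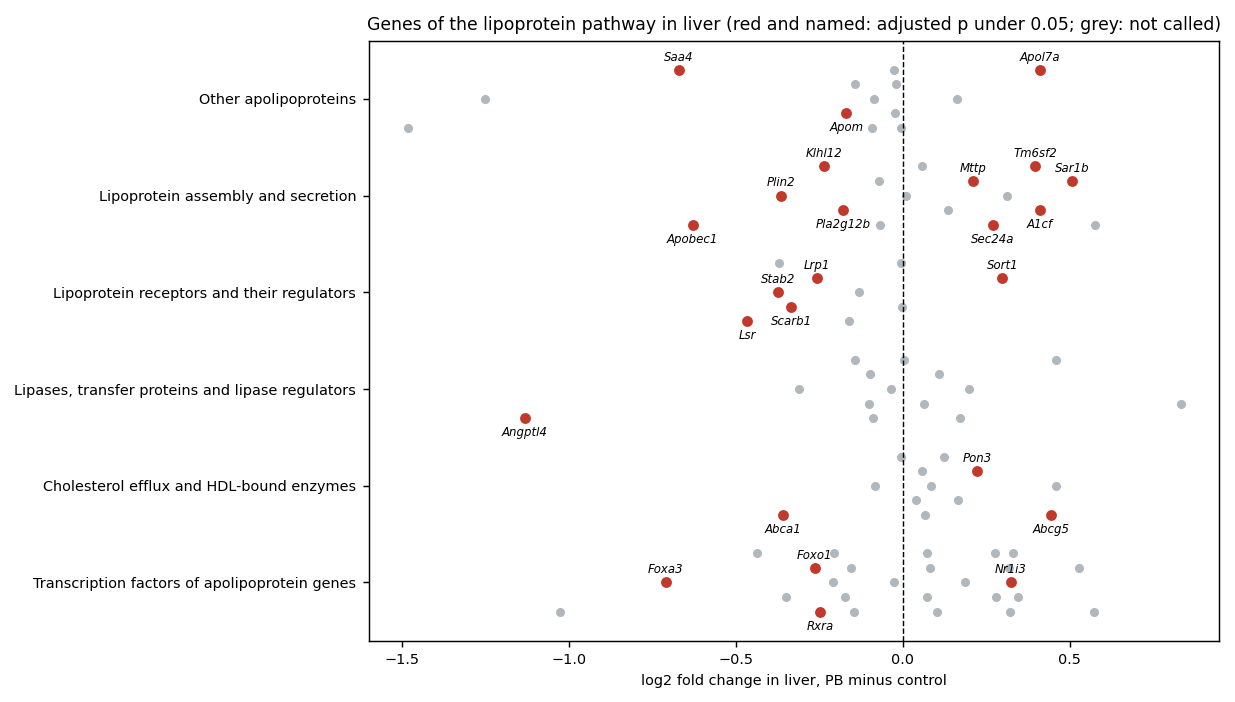
Each point is a gene of the lipoprotein pathway tested in liver, by list, at its log2 fold change of PB over control (x axis), and genes with an adjusted p under 0.05 are red and named. Angptl4, Foxa3, Saa4 and Apobec1 lie farthest to the left among the called genes, and Sar1b lies farthest to the right.

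In kidney 72 of the listed genes were tested, with 4 higher and 1 lower in PB mice, where 3.74% of all 10083 genes were called, 2.17% higher and 1.57% lower. Of 14 genes of assembly and secretion 3 were higher and none lower. Mttp rose by 0.28 in log2 (signals of 143 to 204 in PB and 136 to 159 in control kidneys, adjusted p = 0.0108). Plin2 rose by 0.33 (adjusted p = 0.0268), a call that was lost without control kidney 8 (adjusted p = 0.0554), without a filter (0.0534), with the methods' t-test (0.0617) and with all 40 arrays in 1 fit (0.0766). Dgat2, which makes triglyceride, rose by 0.21 (adjusted p = 0.0441), but leaving out any of 14 kidneys ended that call. Srebf1, a transcription factor of lipid synthesis, was the 1 call among 18 transcription factors, with 0.48 (adjusted p = 0.00896), and was not called with all 40 arrays in 1 fit (adjusted p = 0.169). Apoh, a phospholipid-binding plasma protein, was the 1 call among 5 other apolipoproteins and fell by 0.46 (adjusted p = 0.0126).

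No gene was called in kidney among 13 receptors, 10 lipases and lipase regulators or 12 efflux genes. The genes of highest signal there were Lrpap1, a chaperone of lipoprotein receptors (log2 fold change -0.10, adjusted p = 0.453), Lpl, the lipoprotein lipase (-0.25, adjusted p = 0.104), and Atp5b, a subunit of ATP synthase (-0.05, adjusted p = 0.574). Adipoq, a gene of fat cells, was higher in PB kidneys by 2.54 in log2 (adjusted p = 0.0153), and the summed signal of 4 adipocyte markers was 92.1 to 1370 in PB kidneys and 53.0 to 214 in control kidneys. Whether fat cells took part in the kidney values of Plin2, Dgat2 and Srebf1 was not tested. Plin2 was lower in PB livers and higher in PB kidneys, and the difference between the tissues was not tested for it.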

How the data were processed

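RNA of both organs of 20 mice was hybridised to 40 arrays. The deposited values are intensity values (linear MAS5 signals), which the authors had brought to a trimmed mean of 150 on each array. GCOS and MAS5 are the tools named in the submitters' processing notes. Every array column was matched to tissue, animal and treatment by the labels. Arrays hold no read depth, and the number of animals (10 per group) limits the precision. Methylation and chromatin data of the study were not analysed here.

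Gene names came from the annotation of the platform (34945 probe sets with 1 symbol, 932 with several, 9160 with none). Of these, 34741 probe sets were matched to a RefSeq gene table, used for names and gene order. A probe set was kept where PB or control arrays averaged 50 or more, signals under 1 were set to 1, and log2 signals were fitted with limma 3.58.1 in R 4.3.3 (eBayes with trend, two-sided, Benjamini-Hochberg over all probe sets tested, called at an adjusted p under 0.05). For lists, a gene was represented by its brightest probe set in that tissue. Correlations used permutation within groups (100000 resamples, Python 3.11.15, NumPy 2.4.6, SciPy 1.17.1). Scripts were tested on simulated data.

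The genes named are all members, from each list the called genes of largest change, at most 3 (the gene of highest signal where none was called), the markers with the highest signal, and the 3 genes most like the member of smallest adjusted p in each tissue. The members and lists were chosen with earlier results of these data known.

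Both organs carry the number of their donor, which pairs the arrays. For 16344 probe sets the median r between deviations in liver and kidney was 0.0790 within animals (-0.0677 to 0.188) and -0.00943 between animals, and for 10 of 20 livers the closest kidney was that of the same mouse. The animal was therefore also fitted as a random block. Other alternatives were filters, floors, an offset, quantile normalization, centring, Student's t-tests, a joint fit, the array number as a covariate, robust eBayes, other probe sets for a gene, and each array left out in turn.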

Additional observations from a re-analysis of the deposited data

Results flagged for a closer look

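Within each group of 10 animals, the distance of the highest or lowest value to the next one was set against the range of the group, for 14 probe sets in 4 groups, and 11 of 56 such groups held a value that stood apart. The limit used is one that about 1 in 20 independent, normally distributed groups would pass, and these groups are not independent, since 4 of the 14 probe sets measure Apoa1 and each kidney or liver enters all of them. PB kidney 19 gave 6 of them: the Apoa1 signals of 177, 194, 195 and 215, the Apoa2 signal of 396 and the Apoe signal of 868, where the next highest PB kidneys had 31.7, 9.6, 31.5, 30.2, 91.1 and 590 in the same order. The Alb signal of that kidney was 1030, the highest of the 20 kidneys. In PB liver 13, Apoa1 was 29432 by 1438840_x_at and 28740 by 1455201_x_at, and Apoa2 was 28097, where the next highest PB livers had 22817, 23732 and 23104 in the same order. Control liver 2 held an Apoa4 signal of 5384 by 1436504_x_at, where the next highest control liver had 3635. Control kidney 9 held an Apoc3 signal of 401, where the next highest control kidney had 274.

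The PB effect was called different between liver and kidney for Apoa4 by 1417761_at, with a difference of -0.85 in log2 (SE 0.26, limma adjusted p = 0.0376). This is 1 of 14 member probe sets, where 6.21% of all probe sets passed. The call was lost with signals under 50 set to 50 (limma adjusted p = 0.0551) and without a filter (0.0642). It was also lost with the array number as a covariate (0.0536). Kidney signals of this probe set lie mostly under 50, and the other Apoa4 probe set did not pass (limma adjusted p = 0.222).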

How the results depend on the processing

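The count of 2 member probe sets called in liver was 0 without a filter, with either Student's t-test and with robust eBayes, and 4 after quantile normalization (Apoa4 by 1417761_at, Apoa5, Apob by 1455593_at and Lcat). With each array left out in turn it was 0 to 3. In kidney the count of 0 members became 1 without PB kidney 19 and was 0 to 1 over the arrays left out. It was 0 without the 5 kidneys high in Alb, a setting added after the data were seen. Apoa1 and Apoc1 were under the filter in that setting and could not be called. For the PB effect in liver minus kidney the count of 1 was 0 without a filter, with signals under 50 set to 50, and with the array number as a covariate. The replicate block, with the animal as a random block, gave 1 call there, with an adjusted p of 0.0296 for Apoa4 (consensus correlation 0.0504), and changed no other call of the members. The 5 list genes called in kidney became 9 with the probe set of smallest p for each gene, 3 without a filter, 3 with the methods' t-test and 2 with all 40 arrays in 1 fit. The 2 neighbour pairs that passed became 1 after quantile normalization.

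Of 1661 values under other settings 12 changed sign, and none of these passed the test under that setting. After quantile normalization these were Apoa1 by 1419233_x_at (0.0108) and Apoa2 (9.93e-04) in liver, Atp5b in kidney (0.0177), Apoa4 with Apoa5 (r = 0.0302) and Apoe with Apoc1 (r = -0.15). Apoa4 with Apoa5 also turned without the 2 livers farthest from the median (r = 0.0942), and Apob by 1457554_at in kidney with the array number as a covariate (0.0124). With 1 array left out, Apob by 1457554_at turned in liver without PB liver 15 (range -0.154 to 0.00485) and in kidney without PB kidneys 14 and 15 (range -0.0800 to 0.0342), and Apoa4 by 1436504_x_at turned in kidney without PB kidneys 18 and 20 (range -0.0715 to 0.0107). The causes were not tested. Values under about 50 lie near the background, which limits Apoa1, Apoa4 by 1417761_at, Apoa5, Apoc1 and Lcat in kidney.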
